A study of Mus musculus with 45 samples.

Results

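The comparison described here set cells captured with beads against ACSA2, from mice that drank ethanol, against the same fraction from mice that drank water. The libraries were taken by the fraction and treatment in their labels, which gave 10 ethanol and 10 water libraries, 20 of the 44 libraries analysed, each from a different mouse. All animals were C57BL/6J. Ethanol mice could choose a 15% (v/v) ethanol solution on alternate days over 72 days and were killed 24 h after the last such day, and water mice had water alone over 72 days. The medial prefrontal cortex was minced, 5% of the suspension was set aside as homogenate (24 libraries, 12 per treatment), and the remainder was dissociated, cleared of myelin and passed over the beads before poly(A) RNA was sequenced. Sex and age are not stated in the labels, and how much each mouse drank is not given in the sources used here.

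ACSA2 is an epitope of the sodium pump subunit encoded by Atp1b2, which astrocytes carry on their surface. Astrocytes take up glutamate and GABA, store glycogen, make cholesterol for neurons and cover the vessels of the brain with their endfeet. Pericytes lie on the other side of that contact, embedded in the basement membrane of capillaries, where they steady the endothelium and respond to platelet-derived growth factor and Notch signals. Chronic ethanol intake has been studied in astrocytes for its bearing on ethanol and acetate metabolism, transmitter uptake, innate immune signalling and stress hormone responses.

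The defining astrocyte genes were present in every library. Atp1b2 ranged from 661 to 1827 CPM (reads of a gene per 1000000 gene reads, after trimmed-mean scaling) in water libraries and from 631 to 1201 CPM in ethanol libraries. The fraction also held transcripts of other cells in every library. The oligodendrocyte gene Mog had medians of 314 and 326 CPM, the microglial gene Cx3cr1 of 1379 and 1407 CPM and the pericyte gene Pdgfrb of 267 and 397 CPM in water and ethanol libraries. The neuronal gene Snap25 had medians of 122 and 92.1 CPM. In a bulk sample, fewer cells of a type and less RNA per cell cannot be told apart, which holds for every list of cell type genes below. Gene counts summed to between 504492 and 2938854 per water library and between 1028493 and 3248804 per ethanol library, and 5 water and 0 ethanol libraries lay under 1000000.

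No gene met the threshold. Of the 11122 genes tested with the quasi-likelihood test of edgeR, 0 were called higher (0%) and 0 lower (0%) at a false discovery rate (FDR) under 0.05, and the lowest FDR was 0.0719. An unadjusted p under 0.05 was given to 332 genes on the higher side (2.99%) and 268 on the lower side (2.41%), and at an FDR under 0.2 there were 25 and 3. With the DESeq2 Wald test, 18 genes were called higher (0.162%) and 2 lower (0.018%), with limma voom 0, and with limma voom and sample quality weights 3 higher (0.027%) and 2 lower (0.018%). Over all genes tested the median log2 fold change was -0.0015, 5518 genes lay above 0 (49.6%) and 5604 below it (50.4%). The 95% intervals reached 0.297 to either side of the log2 fold change in the median gene, and 97.9% of the intervals lay within a 2-fold change in either direction. Leaving out ethanol mouse 77, ethanol mouse 75 or water mouse 82 gave 14, 10 and 1 higher genes with edgeR, and leaving out ethanol mouse 66 gave 1 lower gene.

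On the higher side, Gprc5c and Amotl2 had the lowest p values. Gprc5c encodes an orphan receptor of the G protein-coupled family. It ranged from 21.4 to 41.5 CPM (median 28.7) in water libraries and from 21.1 to 64.9 CPM (median 52.7) in ethanol libraries. Of the ethanol libraries, 9 lay above every water library, and that of mouse 77 lay below all of them. The log2 fold change was 0.87 ± 0.16 (SE, edgeR FDR 0.0719). Without ethanol mouse 77 it had the lowest FDR of all genes (edgeR FDR 0.00018). Amotl2 encodes an angiomotin family protein that binds the growth regulator YAP at cell junctions. It ranged from 118 to 190 CPM (median 155) in water libraries and from 178 to 276 CPM (median 208) in ethanol libraries. The ethanol libraries all lay above the water mean, and 8 lay above the highest water library (0.49 ± 0.09, edgeR FDR 0.109). Dact1, whose product modulates Wnt signalling through Dishevelled, ranged from 7.24 to 21.5 CPM (median 15.7) in water libraries and from 15.1 to 45.9 CPM (median 27.4) in ethanol libraries. Its groups overlapped in 3 ethanol libraries, and the log2 fold change was 0.90 ± 0.19 (edgeR FDR 0.135).

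**Figure D1:**
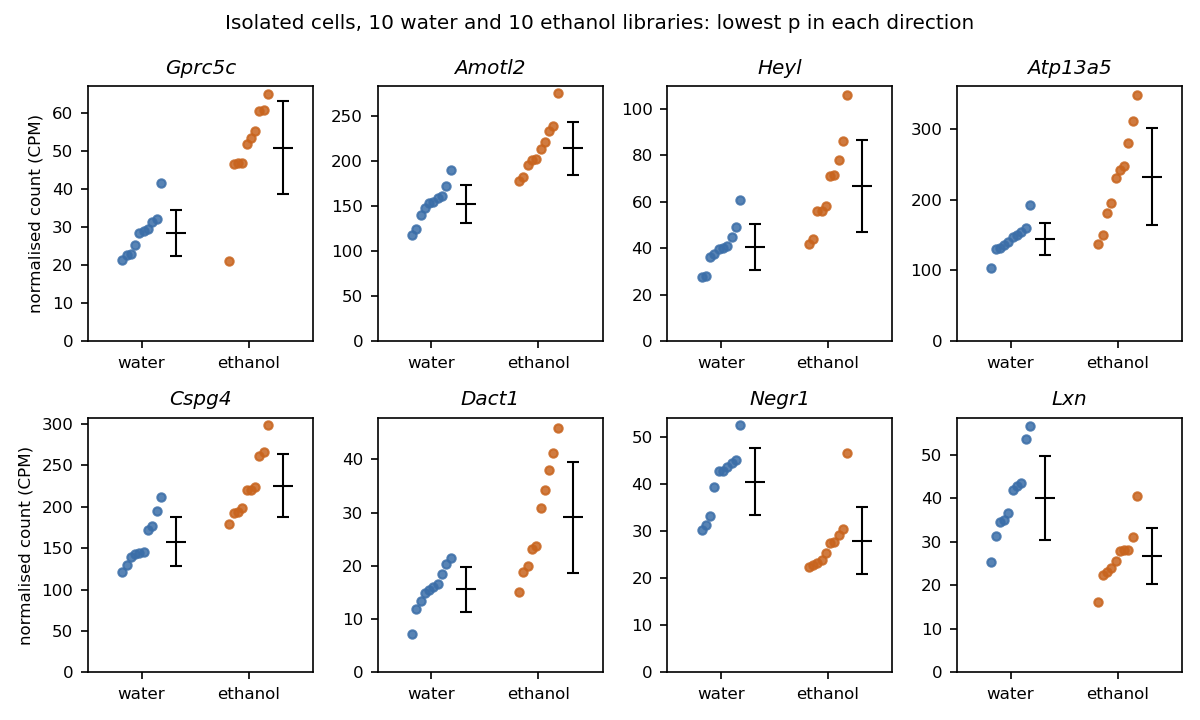
Normalised counts (CPM, vertical axes from 0) of 8 genes in each of the 10 water and 10 ethanol libraries of isolated cells; points are libraries, bars the mean ± SD. In the Gprc5c panel 9 ethanol libraries lie above the highest water library at 41.5 CPM and 1 lies at 21.1 CPM, and in the Negr1 panel 8 ethanol libraries lie below the lowest water library at 30.4 CPM.

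Among the 5 genes with the lowest p, the promoter windows of Amotl2, Atp13a5 and Cspg4 were matched in the RefSeq table of build GRCm38.p6. They are shown because these genes stood on the higher side together and Amotl2 binds YAP, a partner of the TEAD factors. Each window runs from 250 bases before to 50 bases after the start given in the RefSeq table, read 5′ to 3′ on the gene's strand. Capitals mark a match to GGAATG, the core motif of TEAD factors, searched on both strands. The windows lie at chr9:102717554-102717853 (plus strand) for Amotl2, at chr16:29378683-29378982 (minus strand) for Atp13a5 and at chr9:56864854-56865153 (plus strand) for Cspg4. For Amotl2 and Cspg4 the RefSeq start lies downstream of the start of the gene in GENCODE M21, so the Amotl2 window lies inside the GENCODE gene, and for Atp13a5 both give the same start.
Amotl2: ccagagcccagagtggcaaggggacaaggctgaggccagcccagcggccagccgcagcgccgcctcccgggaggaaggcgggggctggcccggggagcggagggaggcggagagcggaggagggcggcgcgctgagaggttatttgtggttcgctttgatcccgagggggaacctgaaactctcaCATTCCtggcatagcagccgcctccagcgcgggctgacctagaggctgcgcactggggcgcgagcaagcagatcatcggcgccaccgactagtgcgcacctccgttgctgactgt
Atp13a5: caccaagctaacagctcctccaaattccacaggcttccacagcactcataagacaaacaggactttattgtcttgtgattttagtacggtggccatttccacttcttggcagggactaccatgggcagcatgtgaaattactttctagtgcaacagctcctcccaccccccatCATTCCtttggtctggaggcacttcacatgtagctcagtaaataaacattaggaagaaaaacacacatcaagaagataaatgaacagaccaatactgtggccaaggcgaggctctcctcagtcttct
Cspg4: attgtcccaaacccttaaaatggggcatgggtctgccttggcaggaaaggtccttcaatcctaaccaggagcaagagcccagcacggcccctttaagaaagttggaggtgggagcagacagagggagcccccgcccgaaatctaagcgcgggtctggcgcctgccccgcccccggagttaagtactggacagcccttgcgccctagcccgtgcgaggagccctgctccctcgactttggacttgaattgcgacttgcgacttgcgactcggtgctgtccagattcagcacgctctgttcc
The match lay at position -65 from the start in Amotl2 and at -77 in Atp13a5, in both on the strand opposite to the gene. The Cspg4 window held none. The motif occurs in 14.7% of the 32817 promoter windows in the table. TGGGAA, the core of the Notch partner RBPJ (25.6% of windows), and the E-box CACGTG (7.15%) occurred in none of the 3 windows. TGGGAA and GGAATG can overlap in a sequence, since both hold the letters GGAA.

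Pericyte genes lay on the higher side together. All 15 members of the pericyte list had a log2 fold change above 0 and an unadjusted p under 0.05, against 2.99% of all genes tested on that side. None of them passed the FDR. The list was chosen with earlier results of these data known, so the count is a description and no test. The median of the list was 0.58 (range 0.40 to 0.79). Pdgfrb, the receptor through which pericytes are recruited to vessels, ranged from 190 to 365 CPM (median 267) in water libraries and from 267 to 532 CPM (median 397) in ethanol libraries. The overlap of the groups came from 3 ethanol libraries, and the other 7 stood above the highest water library (0.55 ± 0.13, edgeR FDR 0.161). Cspg4, which encodes the NG2 proteoglycan of pericytes and of oligodendrocyte precursors, ranged from 122 to 212 CPM (median 145) and from 179 to 299 CPM (median 221). All ethanol libraries exceeded its water mean and 6 exceeded its highest water value (0.51 ± 0.11, edgeR FDR 0.135).

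Channel and transport genes of pericytes lay in the same direction. Atp13a5, a P-type ATPase gene used as a marker of brain pericytes, ranged from 103 to 192 CPM (median 144) in water libraries and from 137 to 349 CPM (median 236) in ethanol libraries. Of the ethanol libraries 7 were above all water libraries (0.69 ± 0.14, edgeR FDR 0.132). Abcc9 and Kcnj8, which encode the regulatory and pore subunits of a channel that closes with ATP, stood at 0.68 ± 0.16 (edgeR FDR 0.161) and 0.60 ± 0.17 (edgeR FDR 0.338). Art3, of the ADP-ribosyltransferase family, had the largest change of the list (0.79 ± 0.18, edgeR FDR 0.161). The aminopeptidase gene Anpep had 8 ethanol libraries above its highest water library at 36.1 CPM (0.69 ± 0.17, edgeR FDR 0.161). Rgs5, a regulator of G protein signalling in mural cells, had the smallest change of the list (0.40 ± 0.15, edgeR FDR 0.764), with 3 ethanol libraries above its water range. Vtn, the vitronectin gene, stood at 0.49 ± 0.13 (edgeR FDR 0.261).

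Summed over the 15 pericyte genes, the level was 1680 to 2630 CPM (median 2056) in water libraries and 2150 to 4239 CPM (median 3244) in ethanol libraries. The ethanol libraries of 8 mice lay above every water library, and the lowest ethanol library, that of mouse 77, lay within the water range. In ethanol mice 59 to 66 the sums were 3027 to 4239 CPM, and in ethanol mice 75 to 78 they were 2150 to 3137 CPM. Water mice 68 to 74 had 1680 to 2630 CPM and water mice 79 to 82 had 1982 to 2577 CPM. Whether the rise differed between these runs of mouse numbers was not tested. The 15 genes with the lowest p on the higher side held 6 members of the list. For the other 9, a fit with the mean level of the pericyte list as a covariate moved the median log2 fold change from 0.70 to 0.26, while the median SE grew from 0.16 to 0.22. In that fit Gprc5c stood at 0.57 ± 0.23, Amotl2 at 0.37 ± 0.14 and Dact1 at 0.54 ± 0.26, whereas Enpep, the aminopeptidase A gene that trims angiotensin II, went from 0.63 ± 0.15 to 0.02 ± 0.16. The covariate was chosen after the data were seen, and it differs between the groups itself.

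**Figure D2:**
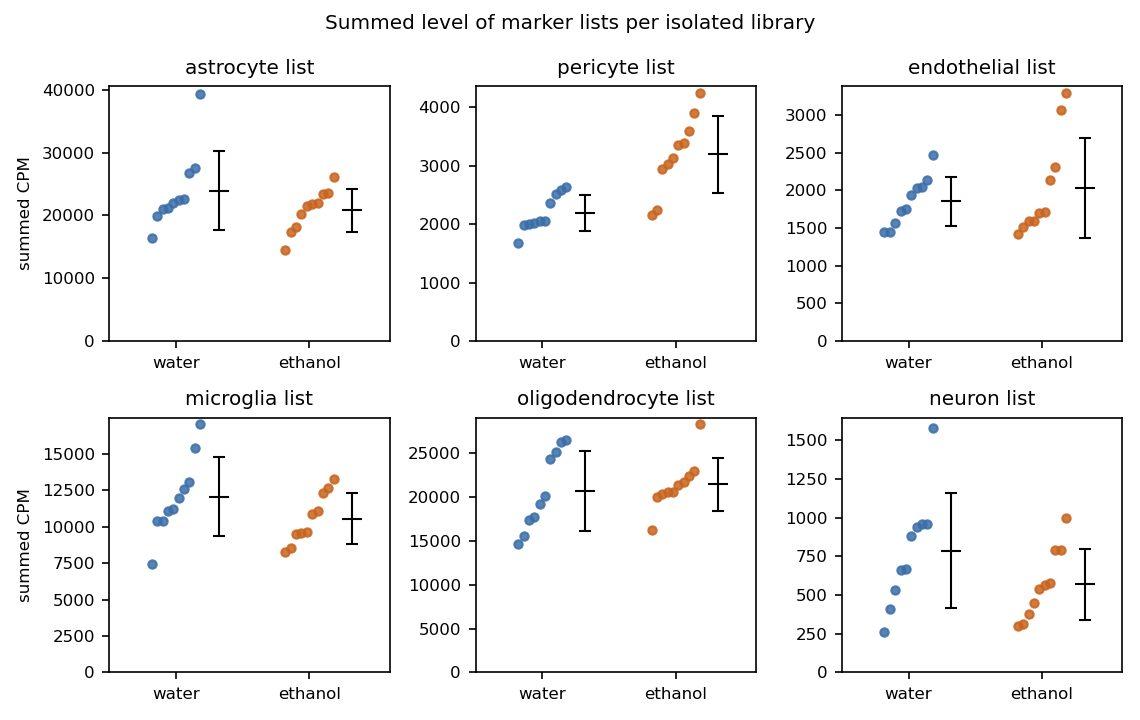
Summed level (CPM, vertical axes from 0) of 6 cell type marker lists in each isolated library; points are libraries, bars the mean ± SD. The pericyte sums of 8 ethanol libraries lie above the highest water library at 2630 CPM, and in the other 5 panels the groups overlap over most of their range.

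Genes of the vascular basement membrane lay on the same side. Of the 15 members, 14 were above 0 and 1 below, and the median was 0.30. On the higher side 9 had an unadjusted p under 0.05, against 2.99% of all genes, and 0 passed the FDR. The laminin gene Lama4 ranged from 28.9 to 57.6 CPM (median 41.6) in water libraries and from 42.5 to 79.8 CPM (median 58.9) in ethanol libraries. All ethanol libraries were above its water mean and 6 above its water range (0.54 ± 0.13, edgeR FDR 0.161). Nid1, the nidogen gene that links laminin to collagen IV, stood at 0.63 ± 0.15 (edgeR FDR 0.161) and the laminin gamma chain gene Lamc1 at 0.40 ± 0.11 (edgeR FDR 0.393). The collagen IV gene Col4a1 stood at 0.41 ± 0.12 (edgeR FDR 0.474). Sparc, which encodes a collagen-binding matrix protein, was the 1 member below 0 (-0.14 ± 0.11). The list median was 0.17 when all libraries were thinned to the depth of the smallest. With the mean level of the pericyte list as a covariate, which itself differs between the groups, it was 0.04. In that fit the members lay between -0.23 and 0.43.

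Other vessel lists were nearer to 0. Of the 6 smooth muscle genes tested, 5 were above 0, with a median of 0.24. An unadjusted p under 0.05 on the higher side was given to 2, against 2.99% of all genes. The 2 were Mylk, the myosin light chain kinase gene (0.43 ± 0.15, edgeR FDR 0.606), and Des, the desmin gene (0.37 ± 0.18, edgeR FDR 0.914). The contractile gene Acta2 had medians of 32.5 CPM in water and 29.1 CPM in ethanol libraries and Myh11 of 51.2 and 55.1 CPM, and in both the groups overlapped over most of their range. Of the 16 endothelial genes, 15 were above 0, 0 had an unadjusted p under 0.05 and the median was 0.14. Cldn5, the tight junction claudin gene, had overlapping groups with medians of 184 and 163 CPM. Flt1, a receptor gene for vascular endothelial growth factor, stood at 0.23 ± 0.19. The fibroblast list had 5 tested members with a median of 0.03. Its marker Dcn was too low to be tested and was at 0 in 1 water library.

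Other genes among the 15 with the lowest p on the higher side belonged to none of these vessel lists. Egflam, the pikachurin gene of the extracellular matrix, stood at 0.61 ± 0.14, and Vasn, whose product vasorin binds transforming growth factor beta, at 0.78 ± 0.18. Sik1, a kinase gene induced by cyclic AMP, ranged from 97.0 to 151 CPM (median 121) in water libraries and from 111 to 220 CPM (median 176) in ethanol libraries. Of the ethanol libraries 8 were above its water range and 2 within it (0.48 ± 0.12). Slc1a5, which encodes a transporter of neutral amino acids such as glutamine, stood at 0.70 ± 0.17 and the calcium store protein gene Casq2 at 0.73 ± 0.18. Each of these 5 genes had an edgeR FDR of 0.161. They are among the 9 genes outside the pericyte list whose median was 0.26 (0.02 to 0.57) with the level of that list as a covariate. That level itself differs between the groups, and whether these 5 genes change apart from it was not tested.

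On the lower side, the lowest p values belonged to Negr1 and Lxn. Negr1, a member of the IgLON family of adhesion molecules, ranged from 30.4 to 52.7 CPM (median 42.9) in water libraries and from 22.5 to 46.8 CPM (median 26.6) in ethanol libraries. The ethanol libraries of 8 mice lay below every water library, and that of mouse 66 lay above the water mean. The log2 fold change was -0.59 ± 0.13 (edgeR FDR 0.161), and without mouse 66 Negr1 was the 1 gene called lower (edgeR FDR 0.0329). Lxn, the gene of the carboxypeptidase inhibitor latexin, ranged from 25.4 to 56.5 CPM (median 39.3) and from 16.2 to 40.6 CPM (median 26.7), with 4 ethanol libraries below its water range (-0.60 ± 0.15, edgeR FDR 0.161). Bhlhe41, a repressor of clock genes, ranged from 122 to 169 CPM (median 133) and from 88.5 to 132 CPM (median 107). Of the ethanol libraries 8 were below its water range (-0.30 ± 0.09, edgeR FDR 0.476).

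Metabolic genes on that side included Ldhb, the lactate dehydrogenase subunit gene (-0.40 ± 0.12, edgeR FDR 0.393), with 6 ethanol libraries below the water range. Ppp1r3c, which directs a phosphatase to glycogen, stood at -0.56 ± 0.18 (edgeR FDR 0.545) and Pank1, a gene of coenzyme A synthesis, at -0.56 ± 0.18 (edgeR FDR 0.549). Pax6, a transcription factor gene of neural progenitors and astrocytes, ranged from 22.1 to 42.9 CPM (median 28.8) in water libraries and from 14.2 to 30.5 CPM (median 21.6) in ethanol libraries. No ethanol library exceeded its water mean (-0.52 ± 0.15, edgeR FDR 0.424). Meis2, a homeobox gene, had 8 ethanol libraries below its water range (-0.37 ± 0.12, edgeR FDR 0.545). The other genes of this group were Lonrf2, Cntnap2, Ppp2r2b, Atp1b1, Dhrs3, Herpud2 and Chchd10, with log2 fold changes from -0.62 for Cntnap2 to -0.27 for Herpud2.

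Astrocyte genes lay below 0 throughout. Of the 25 members tested, 0 were above 0 and 25 below, 4 had an unadjusted p under 0.05 on the lower side (2.41% over all genes) and 0 passed the FDR, with a median of -0.24. Besides Ppp1r3c these were the connexin gene Gjb6 (-0.43 ± 0.19), the neurotensin receptor gene Ntsr2 (-0.31 ± 0.14) and the clusterin gene Clu (-0.30 ± 0.14). In this order, all 4 were highest in water mouse 73 (162, 359, 518 and 1592 CPM). The other water libraries reached at most 108, 257, 417 and 1285 CPM. Aqp4, the water channel gene of endfeet, ranged from 220 to 777 CPM (median 333) in water libraries and from 176 to 424 CPM (median 347) in ethanol libraries. The groups overlapped nearly fully, and the highest water library lay above all ethanol libraries (-0.30 ± 0.18, edgeR FDR 0.98). Summed over the list, the level was 16444 to 39358 CPM (median 22180) in water and 14490 to 26143 CPM (median 21671) in ethanol libraries. The highest water value was that of mouse 73, and the other water libraries reached at most 27605 CPM. The list median was -0.44 without the 5 water libraries under 1000000 counts, a fit that kept mouse 73 among fewer water libraries. The list median without mouse 73 was not computed.

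Genes of astrocyte functions that the list overlaps gave like values. In the glutamate cycle 3 of 11 genes tested were above 0 and 8 below, 0 had an unadjusted p under 0.05, and the median was -0.11. The glutamate transporter genes Slc1a2 and Slc1a3 stood at -0.27 ± 0.19 and -0.29 ± 0.15. In the GABA list 0 of 12 were above 0 and 12 below, and the median was -0.23. On the lower side 3 had an unadjusted p under 0.05, against 2.41% of all genes. The GABA transporter gene Slc6a11 stood at -0.18 ± 0.17, and the receptor subunit genes Gabra4 and Gabrb1 at -0.54 ± 0.18 and -0.45 ± 0.20. Gabra4 and Gabrb1 were highest in water mouse 73 (36.4 and 96.6 CPM), against at most 22.8 and 54.6 CPM in the other water libraries. In cholesterol synthesis 2 of 24 were above 0 and 22 below (median -0.17). An unadjusted p under 0.05 on the lower side was given to 4, against 2.41% of all genes. The 4 were Sqle, the squalene epoxidase gene (-0.40 ± 0.14), Idi1 (-0.43 ± 0.16), Mvd (-0.47 ± 0.19) and Acat2 (-0.27 ± 0.11). Sqle and Idi1 were highest in water mouse 73 (200 and 213 CPM), against at most 130 and 128 CPM in the other water libraries. In glycolysis, glycogen and lactate metabolism 4 of 24 were above 0 and 20 below (median -0.15). The 4 with an unadjusted p under 0.05, all on the lower side (2.41% of all genes), were Ldhb, Ppp1r3c, the phosphofructokinase gene Pfkm (-0.31 ± 0.11) and Tpi1 (-0.30 ± 0.11).

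**Figure D3:**
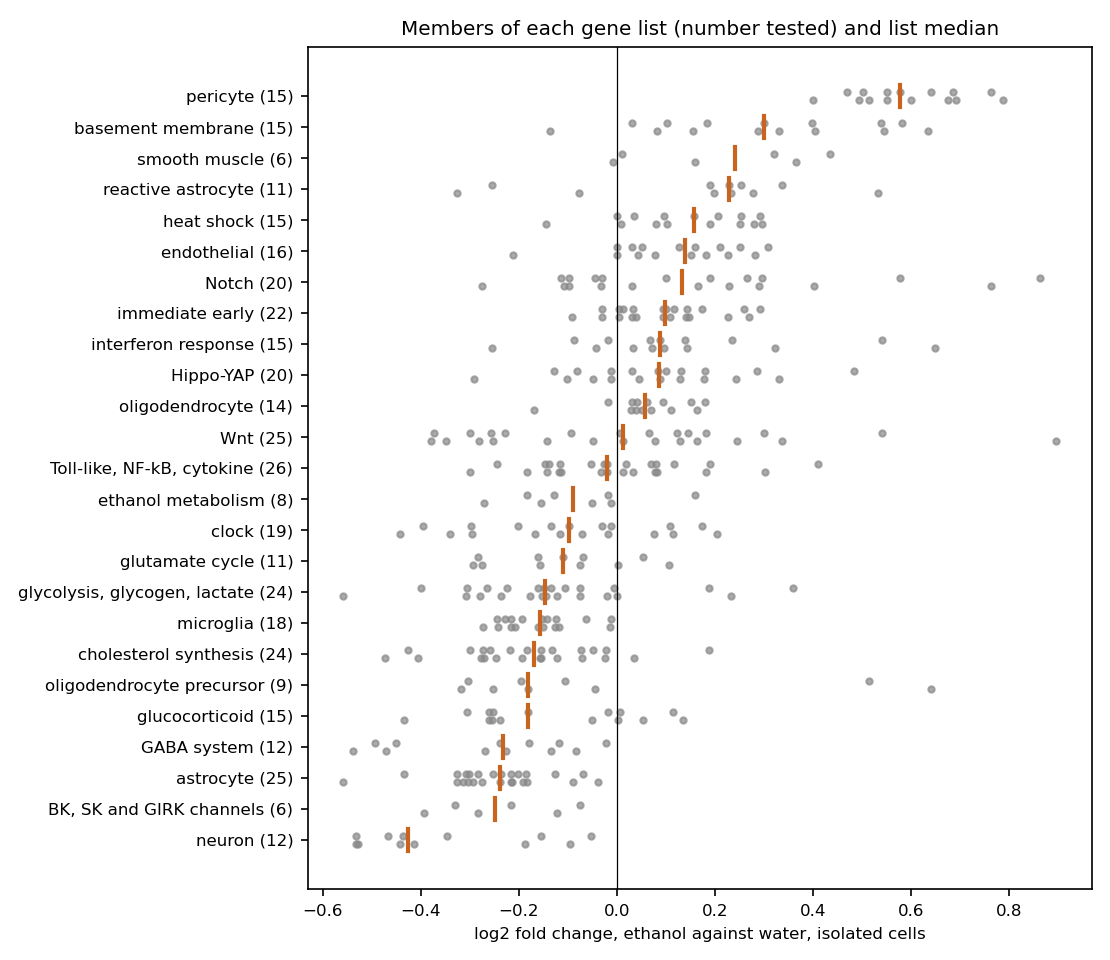
Log2 fold changes of ethanol against water in isolated cells (horizontal axis) for the members of 25 gene lists, with the number tested in brackets; grey points are genes, orange bars list medians. The pericyte median lies at 0.58 with all members right of 0, and the astrocyte (-0.24) and neuron (-0.42) lists lie left of 0.

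Microglial and neuronal genes also lay below 0. All 18 microglial genes tested were below 0, with a median of -0.16. The complement gene C1qb was the 1 with an unadjusted p under 0.05 (-0.27 ± 0.13), against 2.41% of all genes on that side. All 12 neuronal genes tested were below 0 with a median of -0.42, and 1 had an unadjusted p under 0.05, the surface antigen gene Thy1 (-0.53 ± 0.20). Without the 5 water libraries under 1000000 counts, the medians were -0.02 and 0.01. Of the 14 oligodendrocyte genes 12 were above 0 (median 0.06). Among 9 oligodendrocyte precursor genes 2 were above 0 and 7 below (median -0.18).

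Enzymes of ethanol and acetate metabolism lay near 0. Of the 8 genes tested, 1 was above 0 and 7 below, with a median of -0.09. Aldh2, the mitochondrial enzyme gene that clears acetaldehyde, ranged from 116 to 205 CPM (median 143) in water libraries and from 112 to 180 CPM (median 144) in ethanol libraries. The groups overlapped over almost their whole range (-0.05 ± 0.10, 95% interval -0.26 to 0.16). Cat, the gene of catalase, which oxidises ethanol in the brain, stood at -0.15 ± 0.10, and Acss1, a mitochondrial acetyl-CoA synthetase gene, at -0.18 ± 0.12. Adh5, the glutathione-dependent class of alcohol dehydrogenase, had the lowest p of the list (-0.27 ± 0.12, edgeR FDR 0.87). Cyp2e1, Adh1, Adh7 and Aldh1b1 were too low to be tested, with 68, 17, 2 and 23 counts over the 20 libraries.

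Potassium channels of the BK, SK and GIRK families, which include known targets of ethanol, had 6 tested members, all below 0, with a median of -0.25. Kcnma1, the pore of the large-conductance calcium-activated potassium channel, stood at -0.33 ± 0.14 (edgeR FDR 0.83), and Kcnn2 and Kcnn3, small-conductance channel genes, at -0.39 ± 0.27 and -0.21 ± 0.22. Among 29 calcium handling genes 13 were above 0 and 16 below (median -0.01). Atp2a3, a pump gene of the calcium store, had the lowest p of that list, with 7 ethanol libraries above its highest water library at 177 CPM (0.59 ± 0.15, edgeR FDR 0.172).

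Innate immune genes lay on both sides of 0. Of the 26 Toll-like receptor, NF-kB and cytokine genes tested, 12 were above 0 and 14 below, 0 had an unadjusted p under 0.05, and the median was -0.02. The lipopolysaccharide receptor gene Tlr4 stood at -0.30 ± 0.17, Tlr3 at -0.14 ± 0.12, and the cytokine gene Il1b at 0.18 ± 0.23, with an interval of -0.30 to 0.67. In the interferon response 11 of 15 were above 0 (median 0.09). The 2 with an unadjusted p under 0.05, both on the higher side (2.99% of all genes), were Oasl2 (0.65 ± 0.25) and the regulator gene Irf7 (0.54 ± 0.25). Of the 11 reactive astrocyte genes tested, 8 were above 0 and 3 below (median 0.23). Which cells of the mixed fraction these transcripts came from was not tested. The sphingosine phosphate receptor gene S1pr3 ranged from 48.2 to 87.5 CPM (median 59) in water libraries and from 58.6 to 126 CPM (median 94.6) in ethanol libraries. Of the ethanol libraries 7 were above its water range (0.53 ± 0.13, edgeR FDR 0.169). The filament genes Gfap and Vim stood at -0.32 ± 0.25 and 0.23 ± 0.13.

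Stress and early-response genes leaned to the higher side with small changes. Of the 15 heat shock genes 14 were above 0 (median 0.16). The co-chaperone gene Dnaja1 was the 1 with an unadjusted p under 0.05 (0.29 ± 0.12), against 2.99% of all genes on that side. Hspa1a stood at 0.30 ± 0.18, and its reads cannot be told from those of the near-identical Hspa1b. Of the 22 immediate early genes 19 were above 0 (median 0.10), and Nr4a1 had 6 ethanol libraries above its water range of 371 to 558 CPM (0.27 ± 0.10, edgeR FDR 0.733). In the glucocorticoid list 5 of 15 were above 0 and 10 below (median -0.18), with Tsc22d3 at -0.18 ± 0.12 and the mineralocorticoid receptor gene Nr3c2 at -0.24 ± 0.17. Among clock genes 5 of 19 were above 0 and 14 below (median -0.10). Those with an unadjusted p under 0.05, all on the lower side (2.41% of all genes), were Bhlhe41, Rorb (-0.44 ± 0.19) and Hlf (-0.34 ± 0.16). Rorb and Hlf were highest in water mouse 73 (295 and 262 CPM), against at most 162 and 160 CPM in the other water libraries.

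Of the 20 Notch genes 12 were above 0 and 8 below (median 0.13). An unadjusted p under 0.05 was given to 4 on the higher side (Notch3, Heyl, Hey2 and Maml1), against 2.99% of all genes, and to 1 on the lower side, the glycosyltransferase gene Rfng, against 2.41%, and 0 passed the FDR. Notch3, the receptor of mural cells, ranged from 183 to 344 CPM (median 258) in water libraries and from 213 to 587 CPM (median 389) in ethanol libraries. Its ethanol values were above the water range in 8 libraries (0.58 ± 0.15, edgeR FDR 0.261). The Notch target gene Heyl stood at 0.76 ± 0.16 (edgeR FDR 0.132), with 5 ethanol libraries above a water range of 27.7 to 60.9 CPM. The highest Heyl values were those of ethanol mice 77, 60 and 61 (106, 86.3 and 78.1 CPM), and Notch3 was lowest among ethanol libraries in mouse 77. Of the 25 Wnt genes 14 were above 0 and 11 below (median 0.01). On the higher side 4 had an unadjusted p under 0.05 (Dact1, Axin2, Apcdd1 and Fzd6), against 2.99% of all genes. On the lower side there were 0, against 2.41%. Apcdd1 was highest in ethanol mice 77, 60 and 61 (223, 183 and 160 CPM). Besides Dact1, the feedback gene Axin2 had all 10 ethanol libraries above its water mean (0.34 ± 0.11, edgeR FDR 0.516). Among the 20 Hippo and YAP genes 13 were above 0 and 7 below (median 0.09). Amotl2 was the 1 with an unadjusted p under 0.05, against 2.99% of all genes on the higher side. Yap1 stood at 0.13 ± 0.16, and the YAP target gene Cyr61 at 0.18 ± 0.12.

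The genes with the largest changes on the higher side rested on few libraries. Fbln2, Col23a1, Cxcr4, Thbs2, Grik3 and Igf1 had log2 fold changes of 1.01 to 1.34 with SEs of 0.41 to 0.63. The matrix gene Fbln2 ranged from 7.66 to 35.8 CPM (median 14.9) in water libraries and from 4.98 to 147 CPM (median 24.0) in ethanol libraries. Its 3 values above the water range, of 147, 74.6 and 68.8 CPM, belonged to ethanol mice 77, 61 and 60, and its highest water value to mouse 74. The chemokine receptor gene Cxcr4 had its highest values in the same 4 libraries, at 84.4, 63.1 and 45.4 CPM in ethanol mice 77, 61 and 60 and at 24.3 CPM in water mouse 74. The other 16 libraries lay between 5.79 and 17.9 CPM.

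Those 4 libraries also held genes of olfactory ensheathing glia, the cells that wrap olfactory axons. The list of 8 (Frzb, Npy, Fabp7, Prss56, Mybpc1, Aqp1, Vat1l and Foxd3) was assembled after the values were seen. Its summed level was 999 CPM in ethanol mouse 77, 627 CPM in ethanol mouse 60, 461 CPM in ethanol mouse 61 and 332 CPM in water mouse 74. In the other 16 libraries it was 25.7 to 89.3 CPM (median 44.4), and the transcription factor gene Foxd3 reached at most 2.7 CPM there against 18.4 to 82.4 CPM in the 4. Without the 4 libraries, Fbln2 stood at 0.27 ± 0.28, Cxcr4 at 0.21 ± 0.21, Grik3 at 0.32 ± 0.27, Thbs2 at -0.01 ± 0.32 and Igf1 at -0.24 ± 0.29, and Col23a1 was too low to be tested. The Notch target gene Hey2 went from 0.86 ± 0.31 to 0.25 ± 0.25 and the Wnt inhibitor gene Apcdd1 from 0.54 ± 0.18 to 0.23 ± 0.15. Heyl had a mean of 40.6 CPM in the other 9 water libraries and of 56.9 CPM in the other 7 ethanol libraries. Gprc5c stood at 0.92 ± 0.14 there (edgeR FDR 0.0059, the 1 gene called), the 15 genes with the lowest p on the higher side lay between 0.45 and 0.92, and the pericyte genes between 0.41 and 0.81.

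**Figure D4:**
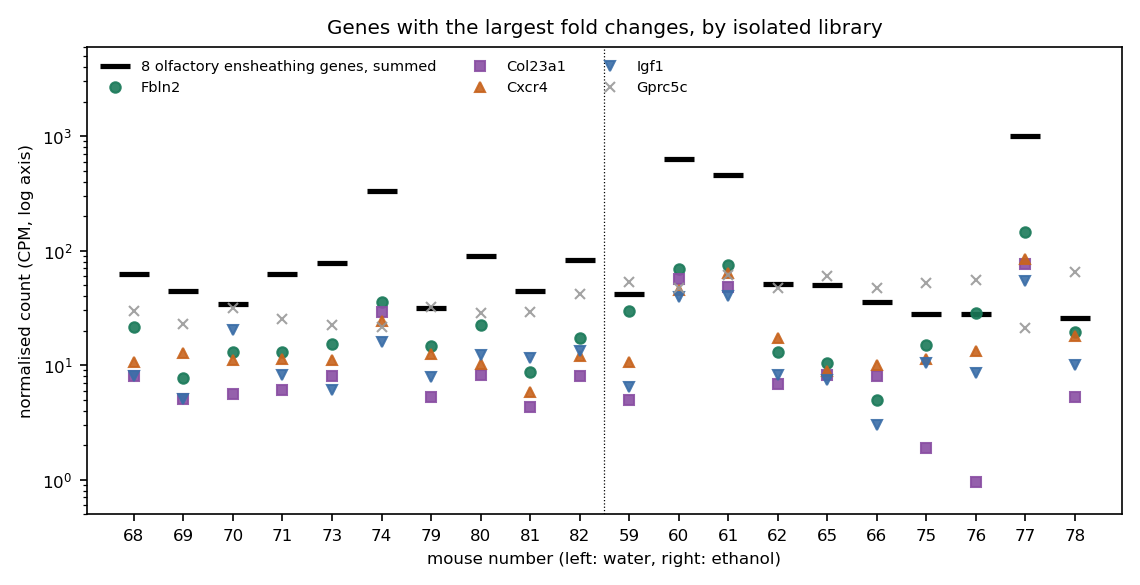
Normalised counts (CPM, log axis) in each isolated library, water mice at the left and ethanol mice at the right, for 4 of the genes with the largest changes, for Gprc5c, and for the sum of 8 olfactory ensheathing genes (black bars). The sums stand at 332 CPM in water mouse 74 and at 627, 461 and 999 CPM in ethanol mice 60, 61 and 77, and at 89.3 CPM or less in the other 16 libraries.

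The largest changes on the lower side were those of Map3k19 (-0.89 ± 0.30), the synuclein gene Sncb (-0.79 ± 0.36), the metallothionein gene Mt2 (-0.71 ± 0.24), the ATP synthase gene Atp5f1 (-0.67 ± 0.26), Bambi (-0.63 ± 0.26) and Cntnap2 (-0.62 ± 0.19). Mt2 ranged from 36.9 to 224 CPM (median 80.3) in water libraries and from 40.2 to 83.6 CPM (median 54.7) in ethanol libraries, within the water range. Its highest water value was that of mouse 73, and without that library it stood at -0.44. The highest water value of Bambi, 36.0 CPM, was also that of mouse 73, its other water libraries lay between 5.54 and 19.4 CPM, and without mouse 73 it stood at -0.32. The highest water value of Atp5f1, 198 CPM, was that of mouse 70, and its other water libraries lay between 33.1 and 53.6 CPM; without mouse 70 it stood at -0.33.

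The same genes were then read in the homogenate, where 0 of 13576 genes were called (0%, lowest edgeR FDR 0.979) and 467 (3.44%) had an unadjusted p under 0.05. Of the 15 genes with the lowest p on the higher side in isolated cells, 8 were above 0 in homogenate and 7 below, between -0.15 and 0.30. Of the 15 on the lower side, 5 were above 0 and 10 below, between -0.14 and 0.10. None of the 30 had an unadjusted p under 0.05 in homogenate with edgeR. For example, Amotl2 stood at -0.07 ± 0.10, Cspg4 at -0.06 ± 0.07 and Negr1 at 0.10 ± 0.08 there. The pericyte list had 14 genes tested in homogenate, 10 above 0 and 4 below, with a median of 0.12.

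Whether the ethanol effect differed between the fractions was tested as an interaction over all 44 libraries. Of 14087 genes 0 passed an FDR of 0.05 (0%), 834 (5.92%) had an unadjusted p under 0.05 and the lowest edgeR FDR was 0.271, shared by Cspg4 and Negr1. With the mouse as a replicate block, which pairs the 2 fractions of 20 mice, 0 of 13814 genes passed (719 at an unadjusted p under 0.05, lowest edgeR FDR 0.603).

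**Figure D5:**
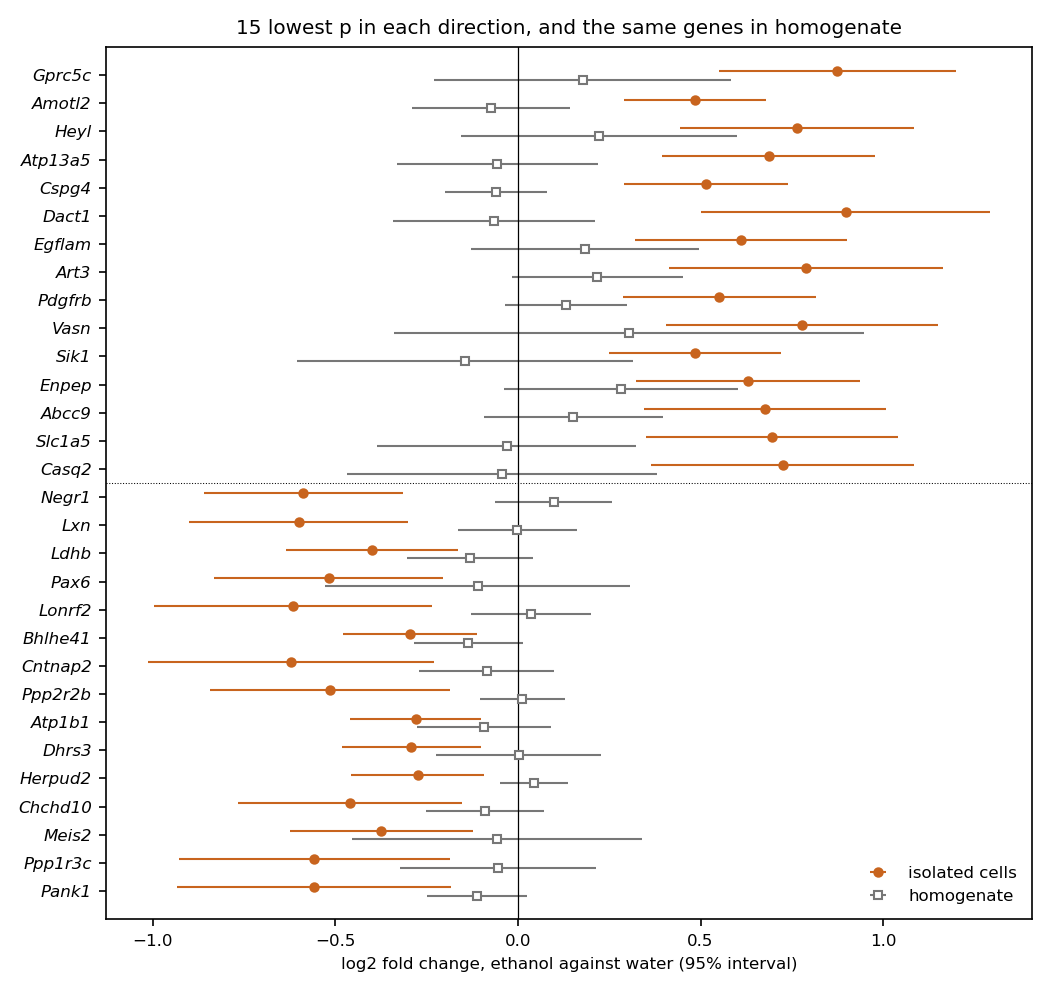
Log2 fold changes of ethanol against water with 95% intervals (horizontal axis) for the 15 genes with the lowest p in each direction in isolated cells (orange circles), beside the same genes in homogenate (open squares). The isolated values lie between 0.48 and 0.90 or between -0.62 and -0.27, having been chosen for it, and the homogenate values between -0.15 and 0.30.

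On build mm10 (GENCODE M21) Gprc5c spans chr11:114851152-114872617, Amotl2 chr9:102716672-102733418, Cspg4 chr9:56865033-56899870, Atp13a5 chr16:29231851-29378732 and Negr1 chr3:156561794-157316445. Whether the counting used strand is not stated in these sources, and genes whose exons overlap a gene on the opposite strand have uncertain counts. Among the genes with the lowest p these are Dact1, Egflam, Art3 (over Cxcl10), Abcc9, Lxn (over Gfm1), Bhlhe41, Ppp2r2b, Atp1b1 (over Nme7) and Chchd10, and among others described Nid1, Col4a1 (over Col4a2), Notch3, S1pr3, Mt2, Atp5f1, Gabra4 and Gabrb1 (over each other), Idi1, Axin2, Maml1, Fzd6, Mylk, Des, Irf7, Il1b, Aldh2, Kcnma1, Hspa1a and Dnaja1. Vasn shares exons with Dnaja3 on the same strand.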

How the data were processed

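Poly(A) RNA libraries of 45 samples from 24 mice are labelled, and 44 had counts used here. The isolated fraction of water mouse 72 was not analysed here. Libraries had 15 PCR cycles, a directional kit and 150 bp paired reads, per the labels' protocols. The submitters' processing notes name bcl2fastq (2.17), cutadapt (1.8), Bowtie2 (2.2.5), Picard (1.141), HTSeq (0.5.3p9), DESeq2 and build mm10. The authors deposited raw counts of reads, 1 value for each of 24421 gene symbols. A further 5 tally rows name no gene and entered neither the totals nor the fits. In isolated libraries they held 37.4% to 90.3% (not aligned), 4.05% to 20.6% (outside genes) and up to 0.270% (ambiguous) of all reads.

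Counts were tested with edgeR 4.0.16 (R 4.3.3): robust quasi-likelihood fit, TMM scaling, expression filter by group and Benjamini-Hochberg adjustment over all genes tested. Only the 20 isolated libraries entered, the homogenates had their own fit, and 1 model of 4 groups gave the interaction. Ethanol and water mice share no number, so they were not paired. The fractions share mouse numbers because they come from the same mouse. Deviations from the group means correlated in the 20 pairs with a median of 0.074 (-0.0318 to 0.149). DESeq2 1.42.0, limma 3.58.1, other scalings, filters, thinning, covariates and leaving out libraries were alternatives. P values cover the spread between mice, 1 library each, and log2 CPM of libraries in a group correlated at 0.866 to 0.978. Library measures were compared by permutation (100000 resamples, two-sided). The tests were checked on simulated counts.

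Genes were named by rule: the 15 lowest p values per direction (mean of at least 20 counts), the 6 with the largest change among those with an unadjusted p under 0.05, genes called by any tool, the 4 members with the lowest p of each list and members its description needs; predicted genes were skipped. Hey2, Heyl and Apcdd1 beside the 4 libraries, the ensheathing genes, Ttr and further named list members were chosen after their values were seen. Members and lists were chosen with earlier results of these data known, so lists are described by counts and medians without a test. Some genes are not reported here.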

Additional observations from a re-analysis of the deposited data

Results flagged for a closer look

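A library was marked where its distance to the nearest other library of its group was over Dixon's 95% critical share of the group's range for 10 values. Of 122 groups of values tested 23 were marked. Chance alone marks about 1 in 20 where values are normally distributed. The values here were not log-transformed, and many genes were chosen for a low p or a large change. The 23 therefore cannot be set against that share.

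In ethanol mouse 77 Gprc5c was far below the other ethanol libraries (21.1 CPM), and in water mouse 82 it was far above the other water libraries (41.5 CPM). The 4 libraries high in olfactory ensheathing genes carried further marks. Water mouse 74 stood high in Fbln2 (35.8 CPM), Col23a1 (28.8 CPM) and Cxcr4 (24.3 CPM). Ethanol mouse 77 stood high in Fbln2 (147 CPM), Thbs2 (81 CPM), Grik3 (88.3 CPM) and the summed oligodendrocyte precursor list (800 CPM). Ethanol mouse 61 stood high in the summed ependyma and choroid plexus list (455 CPM) and in the fibroblast list (330 CPM), and ethanol mouse 60 in total gene counts (3248804), with the fewest reads not aligned (37.4%). The part of these libraries in other results was not tested beyond leaving them out.

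Among the genes on the lower side, ethanol mouse 66 was high in Negr1 (46.8 CPM) and Map3k19 (30.8 CPM), and ethanol mouse 59 in Ppp2r2b (44.2 CPM). Water mice that stood high were 82 in Bhlhe41 (169 CPM), 70 in Atp5f1 (198 CPM) and 73 in Bambi (36 CPM). Summed marker lists stood high in water mouse 73 (astrocyte, 39358 CPM), water mouse 70 (perivascular macrophage, 1276 CPM), water mouse 80 (neuron, 1580 CPM) and ethanol mouse 76 (smooth muscle, 523 CPM).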

How the results depend on the processing

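The number of genes called in isolated cells, 0 in the edgeR fit, was 20 with DESeq2, 5 with voom quality weights, 1 with no filter on low counts, 2 with libraries thinned to the smallest total, 1 with log2 total as a covariate, 38 with the astrocyte list level as a covariate (23 higher and 15 lower) and 1 without the 4 libraries high in ensheathing genes. Leaving out each library gave 0 to 14. It stayed at 0 with limma voom, RLE and upper-quartile scaling, a stricter filter, without Rn45s, with a term for mouse numbers of 75 and above, without robust estimation, without the 5 libraries under 1000000 counts, and with the pericyte covariate. The covariates and the 4 libraries were chosen after the data were seen. With the mouse as replicate block, the interaction gave 0 calls as without it. The direction turned for Thbs2 (-0.0080) and Igf1 (-0.24) without the 4 libraries, for Sncb with the pericyte covariate (0.077), for Aldh2 with quality weights (0.0076), for Tlr3 (0.0027) and Kcnn3 (0.0046) when thinned and for Sparc without the small libraries (0.0039). The cause of these differences was not tested. The other genes with a fold change in the text kept their direction under the settings compared for them. The covariate fits covered all genes tested, but direction was compared there only for genes named by p, size or a call. Members of the covariate's own list were left out of that comparison. List medians were computed under RLE scaling, thinning and without the small libraries. Without the small libraries those of the neuron, microglia, astrocyte and perivascular macrophage lists were 0.01, -0.02, -0.44 and 0.35. Water mouse 73, the highest in the astrocyte list, stayed in that fit. Library measures differed between the groups with permutation p from 0.169 to 0.63 (all adjusted to 0.63 over 6 measures). Depth set which genes were tested: 11122 of 24421 passed the expression filter, and 8372 when thinned to the smallest library.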

Other observations

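Transthyretin, the gene Ttr of the choroid plexus, stood at 383 CPM in ethanol mouse 61 and at 0 in 3 other ethanol libraries, with a highest water value of 8.03 CPM. In the homogenates of the mice whose isolated libraries were high in ensheathing genes, the same 8 genes summed to 172 CPM (mouse 77), 159 CPM (mouse 60), 173 CPM (mouse 61) and 132 CPM (mouse 74), within the range of 118 to 220 CPM of all other homogenates. Ribosomal protein genes of the cytosol lay on both sides of 0 (33 of 56 above, median 0.03), and nuclear-encoded respiratory chain genes lay below it in 48 of 66 (median -0.09). Among 11 secreted synapse-forming genes 6 were above 0 (median 0.02), and among 7 perivascular macrophage genes 5 (median 0.14), with the coagulation factor gene F13a1 at 0.41 ± 0.18 (edgeR FDR 0.85).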
